A study of Mus musculus with 12 samples.

Results

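Macrophages grown from bone marrow of mice lacking Ptprz1 (KO) were treated with IL-4 for 24 h and set against untreated KO macrophages. Ptprz1 encodes a receptor-type protein tyrosine phosphatase of the cell surface. The 4 libraries described here, 2 of IL-4 treated KO cells and 2 of KO control cells, were taken by genotype and treatment from a series of 12 RNA sequencing libraries, which also holds wild-type (WT) cells and cells given LPS with IFNγ. All 13525 genes that passed a low-count filter were compared. Both KO groups carry the targeted allele of strain B6.129-Ptprz1tm1Nmo. The strain label is the same for WT samples, whose titles begin with B6. Cells of every group had grown for 6 days with M-CSF at 10 ng/mL, the growth factor that turns marrow progenitors into macrophages. IL-4 was given at 20 ng/mL, and control cells received no stimulus. The labels give no age or sex, and nothing in them tells if the 2 libraries of a group are from different animals or cultures. The p-values therefore reflect only how far libraries of a group spread, taken over all 12 libraries, and that spread may be technical.

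IL-4 is a cytokine of type 2 immunity. On macrophages it binds a receptor built from the IL-4 receptor α chain and a partner chain, which activates Janus kinases and the transcription factor STAT6. STAT6 then turns on a set of genes known as alternative activation, with arginase, chitinase-like proteins and lectins as its usual markers in mice, and SOCS-family proteins limit the signal.

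Total estimated counts were 16725932 and 19266309 in KO IL-4 libraries and 19555600 and 18570930 in KO control libraries. Levels are given as counts scaled by library size (CPM), which compare 1 gene between libraries and do not compare genes with each other. Ptprz1 had 0 counts in all 4 KO libraries and in both WT control libraries, with 7 counts in WT IL-4 library 2, so its level does not check the genotype. The defining macrophage genes were abundant in all 4 KO libraries. Csf1r, the M-CSF receptor, had 1578 and 1237 CPM in KO IL-4 libraries and 2166 and 1536 CPM in KO control libraries. Libraries of a KO group differed more than WT libraries did: the chi-square per gene between the 2 libraries was 54.9 for KO IL-4 and 48.4 for KO control, against 15.6 for WT IL-4 and 7.10 for WT control. KO control library 1 had high interferon-stimulated transcripts, and KO IL-4 library 2 had low mitochondrially encoded transcripts. Of these 4 libraries, both numbered 2 had low MHC class II and high stromal transcripts. Stromal transcripts were also higher in library 2 than in library 1 of WT IL-4 and WT control cells. Values are given beside the results they touch. In bulk RNA, fewer cells of a type and less RNA per cell cannot be told apart.

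IL-4 raised 476 genes and lowered 452 genes in KO macrophages, which are 3.52% and 3.34% of the genes tested and 6.86% together. A gene is called here at an adjusted p below 0.05 in the quasi-likelihood F test of edgeR, with the Benjamini-Hochberg method over all genes, and "rose" or "fell" is written only of called genes. The log2 fold change was above 1 for 218 of the genes that rose and below -1 for 200 of those that fell, and beyond 3 for 47 and 26. In all 928 called genes the IL-4 libraries lay wholly above or wholly below the control libraries. Over all genes tested, 25.6% had both IL-4 libraries above both controls and 23.6% had them below, and the median log2 fold change was 0.0036. Of the calls, 133 rises and 93 falls held in each of 4 fits that left out 1 KO library, and the genes described first in each group below are among them unless said otherwise. The number of called genes was 424 without KO IL-4 library 2, 303 without KO control library 1, 1040 without KO IL-4 library 1 and finally 1026 without KO control library 2. With the spread estimated from these 4 libraries alone 8 genes were called, and with it from the 6 KO libraries 49. The 928 calls take their spread from all 12 libraries, and libraries of WT groups differed less than those of KO groups. A fit without 1 KO library leaves 1 library in its group, so the spread of that group is not measured there.

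**Figure D1:**
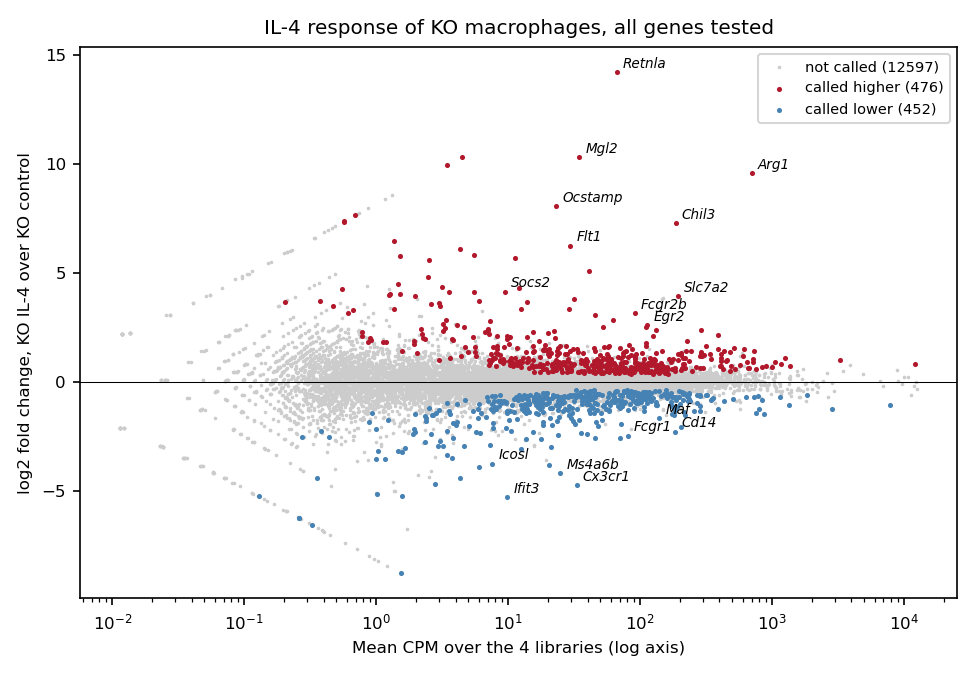
Fold change of every gene tested (log2, KO IL-4 over KO control) against its mean level over the 4 libraries (CPM, log axis). Red points are the 476 genes called higher and blue points the 452 called lower. Points on the outer diagonals have no counts in one group, and their fitted values depend on the prior count.

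The strongest rises were of genes nearly silent in control cells. Retnla (ENSMUSG00000061100) encodes a secreted resistin-like protein of type 2 inflammation. It had 166.4 and 99.8 CPM in KO IL-4 libraries and 0 counts in both KO control libraries, which is at least 910-fold higher when set against 3 counts in the shallower control library (adjusted p = 0.000806). Mgl2 (ENSMUSG00000040950) encodes a galactose-binding lectin of macrophages and dendritic cells. It had 84.6 and 53.9 CPM with IL-4 against 1 count in each control library, a ratio of 1439 with a counting interval of 398 to 11889 (adjusted p = 8.53e-06). Arg1 (ENSMUSG00000019987), arginase, had 1454 and 1357 CPM with IL-4 against 1.24 and 2.39 CPM in controls, with 9.60 ± 0.77 as its log2 fold change (± SE throughout, adjusted p = 0.000392). For each of these 3 genes both IL-4 libraries lay far above both control libraries.

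Other silent genes followed the same course. Il31ra, a subunit of the IL-31 receptor, had 10.9 and 6.87 CPM with IL-4 and 0 counts in controls, at least 60.7-fold higher. Rnase2a, a ribonuclease of the eosinophil-associated family, had 10.5 and 3.17 CPM with IL-4 and 0 counts in controls, at least 46.7-fold higher. Genes of that family have similar copies, so its count is uncertain. Chil3, the chitinase-like protein Ym1, had 334.5 and 406.0 CPM with IL-4 against 4.65 and 0.0488 CPM in controls, and the control libraries differed widely (log2 fold change 7.28 ± 0.92, adjusted p = 0.00305). Its near copy Chil4 had 0.273 and 0.568 CPM with IL-4 and 0 counts in controls and was not called (adjusted p = 0.0723), and reads of the pair may have been split. Flt1, a receptor for vascular endothelial growth factor, had 67.6 and 49.5 CPM with IL-4 against 0.369 and 1.17 CPM in controls (log2 fold change 6.25 ± 0.44, adjusted p = 0.000262). Pdcd1lg2, which encodes the checkpoint ligand PD-L2, had 10.8 and 6.20 CPM with IL-4 against 0.0921 and 0.146 CPM in controls (log2 fold change 6.08 ± 0.64, adjusted p = 0.00134). Tmem26, a transmembrane protein, had 98.9 and 61.9 CPM with IL-4 against 1.94 and 2.73 CPM in controls (log2 fold change 5.11 ± 0.33, adjusted p = 0.000153). Il4i1, a secreted amino acid oxidase named for its induction by IL-4, had 32.4 and 11.7 CPM against 0.645 and 0.195 CPM (log2 fold change 5.67 ± 0.61, adjusted p = 0.00143). Among the 15 genes with the largest rise, Ccdc88c was the least even, at 9.46 and 2.51 CPM with IL-4 against 0.507 and 0.0488 CPM in controls.

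**Figure D2:**
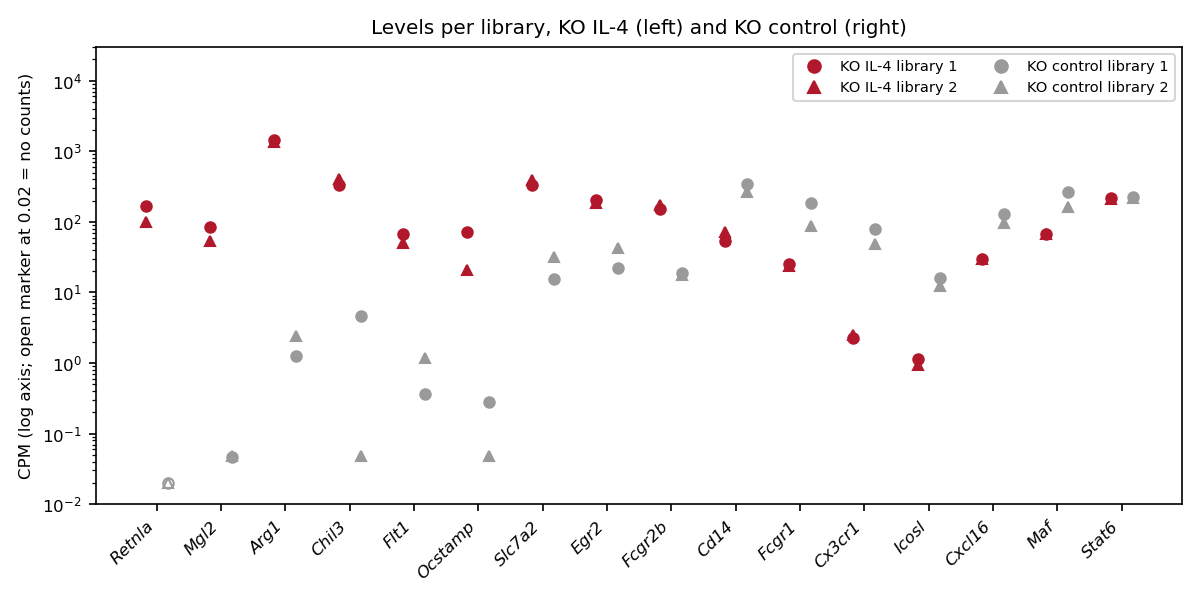
Levels of 16 genes in each library (CPM, log axis), with KO IL-4 in red at the left and KO control in grey at the right of each gene. Circles are library 1, triangles library 2, and open markers have no counts. The groups are apart for every gene shown. For Stat6, which was not called, they are only narrowly apart, with its 4 values between 209.1 and 225.1 CPM.

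STAT6 dimers bind a palindrome of TTC and GAA parted by 4 bases of any kind, and other STAT proteins favour a shorter one with 3 bases between TTC and GAA. The promoters of the 5 strongly raised genes below are shown because they differ in whether they hold the longer form. Each runs from 250 bases before to 49 bases after the base at which the RefSeq gene starts (build GRCm38.p6), is written 5′ to 3′ on the gene's strand, and has matches of either palindrome in capitals. The matches in Retnla, Pdcd1lg2 and Tmem26 are of the longer form, and the match in Il31ra is of the shorter form.
Retnla, chr16:48842359-48842658, plus strand: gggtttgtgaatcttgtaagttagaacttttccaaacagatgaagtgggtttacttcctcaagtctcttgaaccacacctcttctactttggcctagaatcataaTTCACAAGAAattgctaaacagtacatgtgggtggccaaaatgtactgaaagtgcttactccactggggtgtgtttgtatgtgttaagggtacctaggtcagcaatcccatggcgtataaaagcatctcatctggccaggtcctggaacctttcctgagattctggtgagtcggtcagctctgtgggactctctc
Pdcd1lg2, chr19:29410669-29410968, plus strand: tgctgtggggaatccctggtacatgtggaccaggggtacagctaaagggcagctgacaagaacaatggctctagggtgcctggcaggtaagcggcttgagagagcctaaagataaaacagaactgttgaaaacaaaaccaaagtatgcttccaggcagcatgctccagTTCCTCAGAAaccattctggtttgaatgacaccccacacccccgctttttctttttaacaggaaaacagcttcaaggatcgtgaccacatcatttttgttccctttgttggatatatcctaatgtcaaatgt
Tmem26, chr10:68723496-68723795, plus strand: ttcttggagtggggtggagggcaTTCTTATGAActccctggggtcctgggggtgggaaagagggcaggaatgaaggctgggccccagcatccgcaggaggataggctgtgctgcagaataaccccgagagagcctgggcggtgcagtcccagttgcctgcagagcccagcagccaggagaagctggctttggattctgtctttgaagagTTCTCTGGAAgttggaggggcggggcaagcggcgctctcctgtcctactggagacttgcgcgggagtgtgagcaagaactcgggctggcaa
Mgl2, chr11:70130107-70130406, plus strand: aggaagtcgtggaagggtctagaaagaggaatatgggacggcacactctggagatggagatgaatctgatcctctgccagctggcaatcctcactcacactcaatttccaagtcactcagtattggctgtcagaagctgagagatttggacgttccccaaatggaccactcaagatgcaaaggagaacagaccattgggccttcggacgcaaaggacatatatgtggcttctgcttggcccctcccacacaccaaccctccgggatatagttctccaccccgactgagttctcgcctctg
Il31ra, chr13:112580613-112580912, minus strand: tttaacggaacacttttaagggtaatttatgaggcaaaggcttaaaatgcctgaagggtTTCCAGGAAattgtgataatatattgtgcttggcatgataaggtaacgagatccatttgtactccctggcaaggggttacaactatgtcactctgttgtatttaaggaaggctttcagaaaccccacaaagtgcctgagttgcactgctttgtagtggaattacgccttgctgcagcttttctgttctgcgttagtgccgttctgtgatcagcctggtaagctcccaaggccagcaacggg

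The longer palindrome began 145 bases before the start of Retnla, 82 bases before that of Pdcd1lg2, and 227 and 41 bases before that of Tmem26. Mgl2, with a change as large as these, held neither palindrome in this window. Il31ra held only the shorter form, 191 bases before its start. Promoter entries were found for 10 of the 15 genes with the largest rise, and 3 of those 10 hold the longer palindrome and 3 the shorter. Each palindrome is its own reverse complement, so a single search covers both strands. The longer one stood in 6.95% of all 32851 promoters of the RefSeq table, in 6.95% of the 374 promoters found for genes that rose, 6.11% of the 360 found for genes that fell and 6.74% of the 9874 found for all genes tested. The shorter one stood in 8.3% of all promoters of the table, 8.02% of those of genes that rose, 8.61% of those of genes that fell and 8.29% of those of all genes tested. Among genes that rose by more than 2 on the log2 scale, a subset chosen after its values were seen, 8 of 55 promoters (14.5%) held the longer palindrome and 6 (10.9%) the shorter. A match is a stretch of letters, and binding was not measured.

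Of 17 genes of the SOCS family and the dual-specificity phosphatases, which limit cytokine and kinase signals, 4 rose, 1 fell and 12 were not called, with a median of 0.20 in log2 fold change. The rises were of Cish, Socs1, Socs2 and Dusp4, and each held in all 4 fits without a library. The fall was of Dusp6, by 1.001 (adjusted p = 0.0440), with 0.121 without KO IL-4 library 1, 0.0599 without KO control library 1 and 0.136 without KO control library 2. Cish, which binds activated cytokine receptors, had 15.6 and 6.25 CPM with IL-4 against 0.322 and 0.0488 CPM in controls (log2 fold change 5.80 ± 0.62, adjusted p = 0.00137). Socs2 had 14.9 and 20.7 CPM against 0.599 and 1.41 CPM (4.14 ± 0.35, adjusted p = 0.000441), and Socs1, an inhibitor of Janus kinases, had 6.07 and 4.97 CPM against 0.645 and 0.244 CPM (3.60 ± 0.43, adjusted p = 0.00249). These 3 and the kinase Jak2 were the 4 genes that rose among 21 tested for the receptor and STAT6 pathway, and 2 fell, with a list median of 0.019, and falls numbered 0 without KO control library 1 and 4 without KO control library 2. Stat6 had 216.7 and 209.1 CPM with IL-4 against 225.1 and 219.8 CPM in controls and was not called (log2 fold change -0.06, 95% interval -0.28 to 0.16). The receptor chain Il4ra fell, at 43.7 and 42.4 CPM against 95.5 and 61.7 CPM, but its adjusted p of 0.0238 became 0.0595 without KO IL-4 library 1, 0.117 without KO IL-4 library 2 and became 0.0928 without KO control library 1. Jak2 rose by 0.82 (adjusted p = 0.0269), with 0.0812 without KO IL-4 library 1, 0.0824 without KO control library 1 and 0.108 without KO control library 2. The phosphatase Ptpn6 fell by 0.81 (adjusted p = 0.0376), with 0.189 without KO IL-4 library 2 and with 0.196 without KO control library 1.

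Among 30 tested genes known as markers of alternative activation, 18 rose and 1, Il4ra, fell. The list median was 3.15 in log2 fold change, or 2.60 with genes absent from controls set at their bound, against 0.0036 over all genes. Of the rises, 15 held in all 4 fits without a library. Several members known from other settings did not pass. Mrc1, the mannose receptor CD206, had 919.8 and 686.8 CPM with IL-4 against 487.3 and 213.0 CPM in controls, and its log2 fold change of 1.20 ± 0.32 gave an adjusted p of 0.0572. Without KO control library 1 the change was 1.92 (adjusted p = 0.0056). Ccl22, a chemokine for type 2 T cells, had 4.76 and 0 CPM against 0.184 and 0.0488 CPM. Fn1, fibronectin, had 145.9 and 269.5 CPM against 51.4 and 263.1 CPM, so the groups overlapped. Ccl24 had at most 0.164 CPM in any of the 4 libraries, and Ccl17 had 8 and 1 counts with IL-4 against 0 counts in controls. Alox15, a lipoxygenase of alternatively activated macrophages, had 0 counts in all 4 libraries.

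Transcription factors of macrophage polarisation rose in 13 of 32 genes tested and fell in 1, with a median of 0.88. Batf3, a basic leucine zipper factor, had 23.9 and 21.4 CPM with IL-4 against 2.30 and 2.19 CPM in controls (log2 fold change 3.33 ± 0.27, adjusted p = 0.000419). Irf4, an interferon regulatory factor of alternative activation, had 15.47 and 6.96 CPM against 1.47 and 0.195 CPM (3.72 ± 0.64, adjusted p = 0.0111). Egr2, a zinc finger factor, had 203.4 and 184.0 CPM against 21.9 and 42.1 CPM (2.60 ± 0.30, adjusted p = 0.00192). All 3 were apart by several-fold in each pairing of an IL-4 with a control library. Bhlhe40 rose by 2.54, Nfil3 by 2.34, Klf4 by 2.05 and the stress-responsive Atf3 by 1.42 on the log2 scale. The factor that fell was Maf, at 67.3 and 66.5 CPM with IL-4 against 262.9 and 161.1 CPM in controls (-1.66 ± 0.23, adjusted p = 0.00412), named after its values were seen. Junb rose by 1.58 (adjusted p = 0.0175), but its adjusted p was 0.0791 without KO IL-4 library 2 and was 0.0672 without KO control library 2.

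Of 16 genes of arginine and polyamine metabolism, 3 rose and none fell, with a median of 0.16. Besides Arg1 they were Slc7a2, a transporter of cationic amino acids, and Gatm, which uses arginine to start creatine synthesis. Slc7a2 had 331.9 and 395.5 CPM with IL-4 against 15.3 and 32.0 CPM in controls (log2 fold change 3.95 ± 0.52, adjusted p = 0.00354). Gatm had 394.7 and 254.3 CPM against 132.2 and 112.4 CPM (1.41 ± 0.21, adjusted p = 0.00537). Nos2, which encodes inducible nitric oxide synthase and competes with arginase for arginine, had 0.164 and 0 CPM with IL-4 and 0.138 and 0 CPM in controls, at the limit of detection in each group.

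Few chemokines were called, in both directions. Of 22 chemokines, 2 rose and 2 fell, 9.09% each way, against 3.52% and 3.34% of all genes tested. Their median was -0.19, and it was 0.66 without KO control library 1 and -0.74 without KO IL-4 library 1. Without KO control library 2, 5 fell. Ccl7, an attractant of monocytes, had 15.8 and 29.9 CPM with IL-4 against 1.24 and 1.07 CPM in controls (log2 fold change 4.30 ± 0.42, adjusted p = 0.000958). Ccl2, also a monocyte attractant, had 24.5 and 22.1 CPM against 7.28 and 7.46 CPM (1.66 ± 0.17, adjusted p = 0.00103). Cxcl16, a membrane-bound chemokine and scavenger receptor, had 29.7 and 30.2 CPM against 130.4 and 96.0 CPM (-1.92 ± 0.14, adjusted p = 0.000274). Ccl4 fell by 1.26 (adjusted p = 0.0417), with 0.0601 without KO IL-4 library 1, 0.223 without KO IL-4 library 2 and with 0.219 without KO control library 1. Of 13 chemokine and chemoattractant receptors, 4 fell and none rose, with a median of -0.11. That median became 0.18 without KO IL-4 library 2, 0.091 without KO control library 1 and -1.61 without KO IL-4 library 1, and the falls numbered 2 to 5. Cx3cr1, the fractalkine receptor, had 2.24 and 2.51 CPM with IL-4 against 77.9 and 49.3 CPM in controls, and its log2 fold change of -4.74 ± 0.42 (adjusted p = 0.000578) was the strongest fall that held without any 1 library among the 15 named falls. Cxcr3, the receptor of interferon-induced chemokines, had 0.383 and 0.805 CPM against 3.22 and 4.92 CPM (-2.75 ± 0.47, adjusted p = 0.0104). C5ar1 fell by 0.70 (adjusted p = 0.0160), which became 0.0514 or 0.0510 when KO IL-4 library 1 or 2 was left out. Fpr1 fell by 4.69 (adjusted p = 0.0460), with 0.0950 without KO IL-4 library 1, 0.240 without KO IL-4 library 2 and with 0.226 without KO control library 1.

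Most pattern recognition genes were not called, and more of those called fell than rose. Cd14, the co-receptor for bacterial lipopolysaccharide, had 53.2 and 71.8 CPM with IL-4 against 342.2 and 266.8 CPM in controls (log2 fold change -2.29 ± 0.18, adjusted p = 0.000335). It is 1 of 6 genes that fell among 23 Toll-like receptors and adaptors, of which 1, Tlr1, rose, with a median of -0.31. The falls were 1 without KO IL-4 library 2 and numbered 2 without KO control library 1. Tlr2 had 13.7 and 9.42 CPM against 83.2 and 35.3 CPM, and its adjusted p of 0.0125 became 0.0883 without KO IL-4 library 2 and became 0.0517 without KO control library 1. Tlr1 had 72.8 and 57.1 CPM against 39.4 and 37.1 CPM, and its adjusted p of 0.0234 became 0.0711 without KO IL-4 library 1, 0.0980 without KO control library 1 and 0.0901 without KO control library 2. Of 23 lectins and scavenger receptors, 3 rose and 6 fell, with a median of -0.51. Without KO control library 1 the median was 0.34, with 2 rises and 2 falls, and without KO IL-4 library 2 there were 2 falls. Clec4d had 80.1 and 128.9 CPM with IL-4 against 277.1 and 248.9 CPM in controls (-1.33 ± 0.20, adjusted p = 0.00567), and Clec12a, an inhibitory lectin receptor, had 174.1 and 188.4 CPM against 405.6 and 365.1 CPM (-1.09 ± 0.10, adjusted p = 0.000806). Besides Mgl2, the rises were of the galectin Lgals3 and of Clec7a, the β-glucan receptor, named after its values were seen. Lgals3 rose by 0.99 and Clec7a by 0.97, and both were lost without KO control library 1, at adjusted p of 0.0806 and 0.0779. Gpr84, a receptor for medium-chain fatty acids, had 0.820 and 0.663 CPM with IL-4 against 6.82 and 4.63 CPM in controls (-2.95 ± 0.40, adjusted p = 0.00412).

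Receptors for antibody changed in opposite directions. Fcgr2b, the inhibitory IgG receptor, had 151.5 and 176.0 CPM with IL-4 against 19.1 and 17.7 CPM in controls (log2 fold change 3.15 ± 0.19, adjusted p = 0.00013). Fcgr1, the activating high-affinity receptor, had 25.7 and 23.7 CPM against 186.7 and 86.4 CPM (-2.47 ± 0.30, adjusted p = 0.00277). Itgax, the complement receptor subunit CD11c, had 661.0 and 611.6 CPM against 95.8 and 194.7 CPM (2.13 ± 0.30, adjusted p = 0.00474), while Itgam, the related CD11b, was not called at 1009 and 810.8 CPM against 1101 and 866.0 CPM. In all, 2 of 17 Fc receptor and complement genes rose and 4 fell, with a median of -0.47. The falls were 1 without KO IL-4 library 2, 2 without KO control library 1 and 7 without KO control library 2. Itgax and Batf3 are also markers of dendritic cells. The summed level of 10 dendritic markers was 687.3 and 634.3 CPM with IL-4 against 98.8 and 197.6 CPM in controls, nearly all of it Itgax. Of these markers 4 were tested, and all 4 had log2 fold changes above 0, with a median of 1.95. Itgax and Batf3 rose, while Zbtb46 and Ccr7 were not called. Flt3, a defining marker, had 0 counts in both IL-4 libraries and 1 and 0 counts in controls. Clec9a had at most 4 counts in any of the 4 libraries.

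Genes of T cell costimulation and checkpoints changed both ways too. Icosl, the ligand of the costimulator ICOS, had 1.15 and 0.947 CPM with IL-4 against 16.1 and 12.1 CPM in controls (log2 fold change -3.75 ± 0.31, adjusted p = 0.000419). Cd274, which encodes PD-L1, had 69.6 and 57.8 CPM against 31.3 and 30.4 CPM (1.04 ± 0.17, adjusted p = 0.00853), a smaller rise than that of Pdcd1lg2. Of 13 such genes, 2 rose and 4 fell, with a median of -0.68. The falls were 6 without KO control library 2 and 2 without any other single library. The other falls were weaker: Havcr2 by 1.32, with an adjusted p of 0.0152 and of 0.0548 without KO IL-4 library 1, and Tnfsf9 by 1.20, with 0.0169, and 0.0944 without KO IL-4 library 2 and with 0.101 without KO control library 1. Lgals9 fell by 1.43 (adjusted p = 0.0211), with 0.0635 without KO IL-4 library 1, 0.101 without KO IL-4 library 2 and with 0.0517 without KO control library 1.

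Genes of macrophage fusion and osteoclasts rose in 7 of 21 cases and fell in none, with a median of 0.69. Ocstamp, a membrane protein needed for fusion into multinucleated cells, had 71.7 and 21.0 CPM with IL-4 against 0.276 and 0.0488 CPM in controls (log2 fold change 8.07 ± 0.75, adjusted p = 0.000725). Cdh1, E-cadherin, had 4.04 and 5.59 CPM against 0.322 and 0 CPM (4.82 ± 0.82, adjusted p = 0.0104). Itgb3, an integrin subunit of osteoclasts, had 36.6 and 30.2 CPM against 7.09 and 6.97 CPM (2.25 ± 0.28, adjusted p = 0.00281). The phosphatase Dusp4 rose by 2.50 and the acid phosphatase Acp5 by 1.09. Ctsk, the osteoclast protease cathepsin K, rose by 1.46 (adjusted p = 0.0227), with 0.0542 without KO IL-4 library 1, 0.0722 without KO IL-4 library 2 and with 0.134 without KO control library 1.

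Cytokine receptors and growth factors included clear rises. Among 29 cytokines and cytokine receptors 7 rose and 2 fell, although the list median was -0.31. Falls numbered 0 without KO IL-4 library 2 or KO control library 1, 1 without KO IL-4 library 1 and then 6 without KO control library 2. Il1rl1, the receptor of IL-33, had 11.9 and 10.5 CPM with IL-4 against 2.76 and 1.76 CPM in controls (log2 fold change 2.30 ± 0.37, adjusted p = 0.00822). Il1rl2, the receptor of IL-36, had 14.2 and 11.6 CPM against 1.52 and 2.15 CPM (2.81 ± 0.41, adjusted p = 0.00503). Csf2ra and Csf2rb, the chains of the GM-CSF receptor, rose by 1.05 and 0.97, with adjusted p of 0.00739 and 0.00436. Csf2rb has a near copy, Csf2rb2, so its count is uncertain. Il27ra rose by 1.49 (adjusted p = 0.00841). Of 26 genes of growth factors, matrix and repair, 6 rose and 2 fell, with a median of 0.074 that was -0.17 without KO IL-4 library 2 and became -0.12 without KO control library 1. Without KO control library 1 only 2 rose. Pdgfa, a platelet-derived growth factor chain, had 52.3 and 53.7 CPM with IL-4 against 17.9 and 25.01 CPM in controls (1.30 ± 0.20, adjusted p = 0.0062). Gas6, a ligand of the receptors that clear dying cells, had 74.9 and 113.0 CPM against 279.8 and 254.6 CPM (-1.51 ± 0.23, adjusted p = 0.0062). The other fall was of Tgfbr2, by 0.93 (adjusted p = 0.00281), named after its values were seen. Hpgd, which inactivates prostaglandins, had 4.32 and 5.54 CPM against 41.0 and 20.3 CPM (-2.63 ± 0.36, adjusted p = 0.00381), and of 15 eicosanoid genes 3 fell and none rose, with a median of -0.50 that was 0.0095 without KO control library 1.

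**Figure D3:**
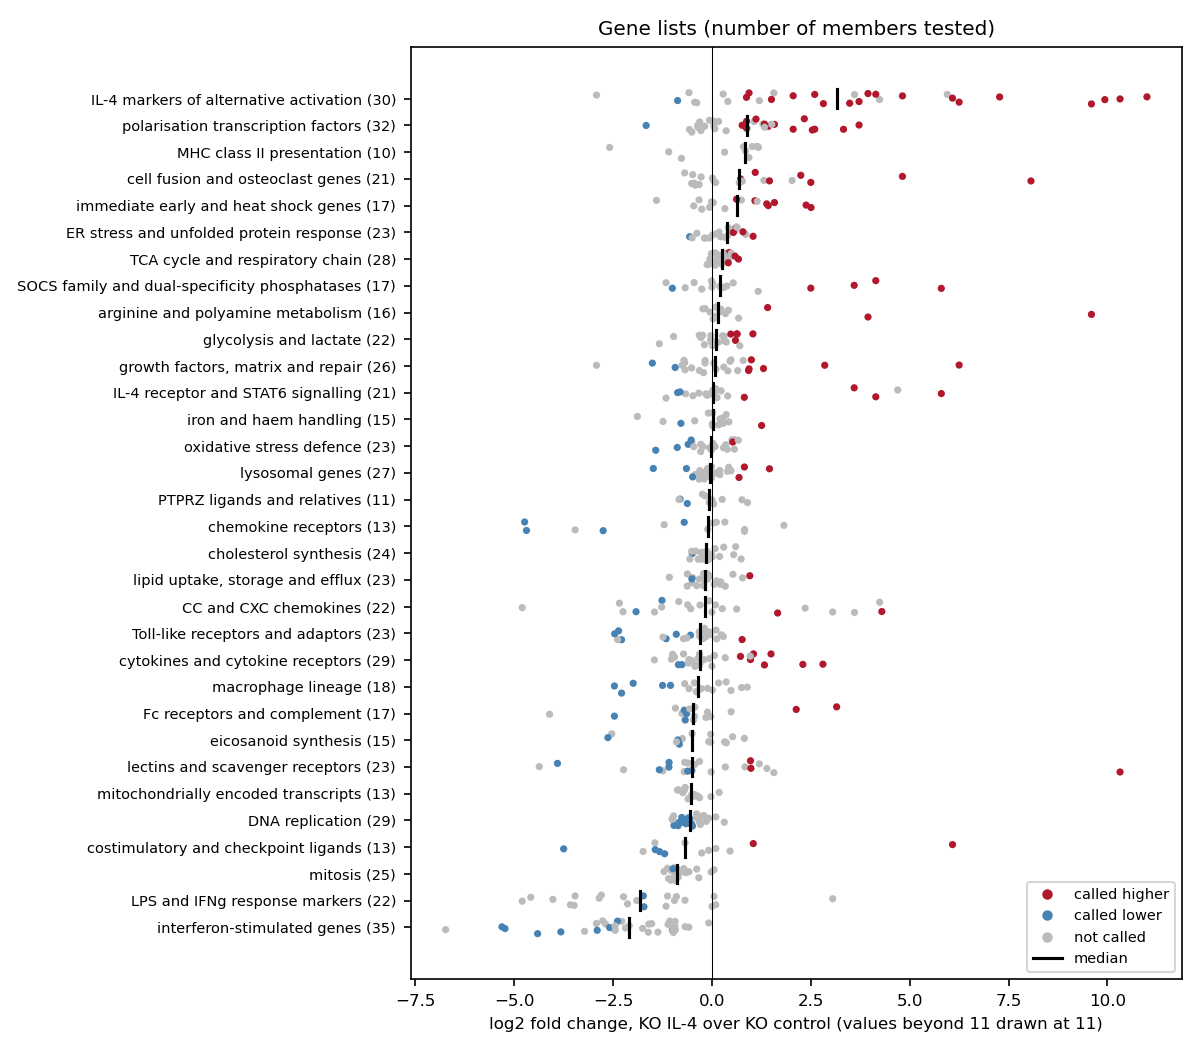
Fold change of each tested member of 32 gene lists (log2, KO IL-4 over KO control), with red points called higher, blue called lower and grey not called, and a black bar at the list median. Lists are sorted by median, from 3.15 for markers of alternative activation to -2.09 for interferon-stimulated genes. Retnla, at 14.22, is drawn at 11.

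General macrophage genes were partly lower. Of 18 lineage genes 5 fell and none rose, with a median of -0.36. Of the falls, Cd14 and Fcgr1 held in all 4 fits without a library, and the falls numbered 3 without KO IL-4 library 2 and numbered 2 without KO control library 1. Lyz2, lysozyme, had 3986 and 6275 CPM with IL-4 against 11945 and 9273 CPM in controls, and its adjusted p of 0.0230 became 0.0542 without KO IL-4 library 1 and became 0.1103 without KO control library 1. Adgre1, Cd68 and Mertk were not called, with log2 fold changes of -0.58, -0.27 and -0.69. The phagocyte oxidase subunits Cybb and Ncf1 fell. Cybb had 461.7 and 365.3 CPM against 1202 and 1013 CPM (-1.42 ± 0.18, adjusted p = 0.00277), and Ncf1 had 184.6 and 152.5 CPM against 344.9 and 274.4 CPM (-0.88 ± 0.14, adjusted p = 0.00739). Slc11a1, a metal transporter of the phagosome, had 277.7 and 237.8 CPM against 442.6 and 445.5 CPM (-0.78 ± 0.12, adjusted p = 0.00559). Abcg1, a cholesterol exporter, rose by 0.96 (adjusted p = 0.00311), and the lysosomal protease Ctsz by 0.69 (adjusted p = 0.00881).

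Interferon-stimulated genes were uneven between the control libraries. Their summed level over 36 genes was 554.6 and 511.2 CPM with IL-4 against 1873 and 672.7 CPM in controls, so KO control library 1 stood alone. In WT cells the sums were 540.2 and 681.6 CPM with IL-4 against 667.7 and 667.3 CPM in controls. Of 35 tested, 8 fell, none rose and all 35 log2 fold changes were below 0, with a median of -2.09. The falls ran from 0 to 32 with the processing. None was called without KO control library 1, where the median was -0.45, and none without KO IL-4 library 2, while 1 fell without KO IL-4 library 1, 32 without KO control library 2, 32 with no low-count filter and 27 by DESeq2. Ifit1, an antiviral RNA-binding protein, had 0.547 and 0.237 CPM with IL-4 against 14.7 and 1.76 CPM in controls (-4.41 ± 0.98, adjusted p = 0.0306). Without KO control library 1 its change was -2.18 (adjusted p = 0.0902), and the adjusted p was 0.0713 or 0.180 when KO IL-4 library 1 or 2 was left out. Rtp4, another such gene, had 3.06 and 2.32 CPM against 67.8 and 7.995 CPM, a change of -3.82 (adjusted p = 0.0292) that was -1.58 (adjusted p = 0.0718) without KO control library 1, and its adjusted p was 0.0790 or 0.168 when KO IL-4 library 1 or 2 was left out. The 22 tested markers of LPS and IFNγ had 2 falls, Tnf and Cd38, and a median of -1.82. That median was 0 without KO control library 1, with no falls, and without KO control library 2 there were 13 falls. Tnf had 6.01 and 3.46 CPM with IL-4 against 16.2 and 15.2 CPM in controls (-1.74 ± 0.35, adjusted p = 0.0223), with 0.138 without KO IL-4 library 2 and with 0.0951 without KO control library 1. Cd38 had an adjusted p of 0.0357, with 0.106 without KO IL-4 library 1 and with 0.182 without KO control library 1. Saa3, an acute phase protein, had 2.19 and 3.74 CPM with IL-4 against 69.8 and 1.56 CPM in controls, with the groups overlapping.

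**Figure D4:**
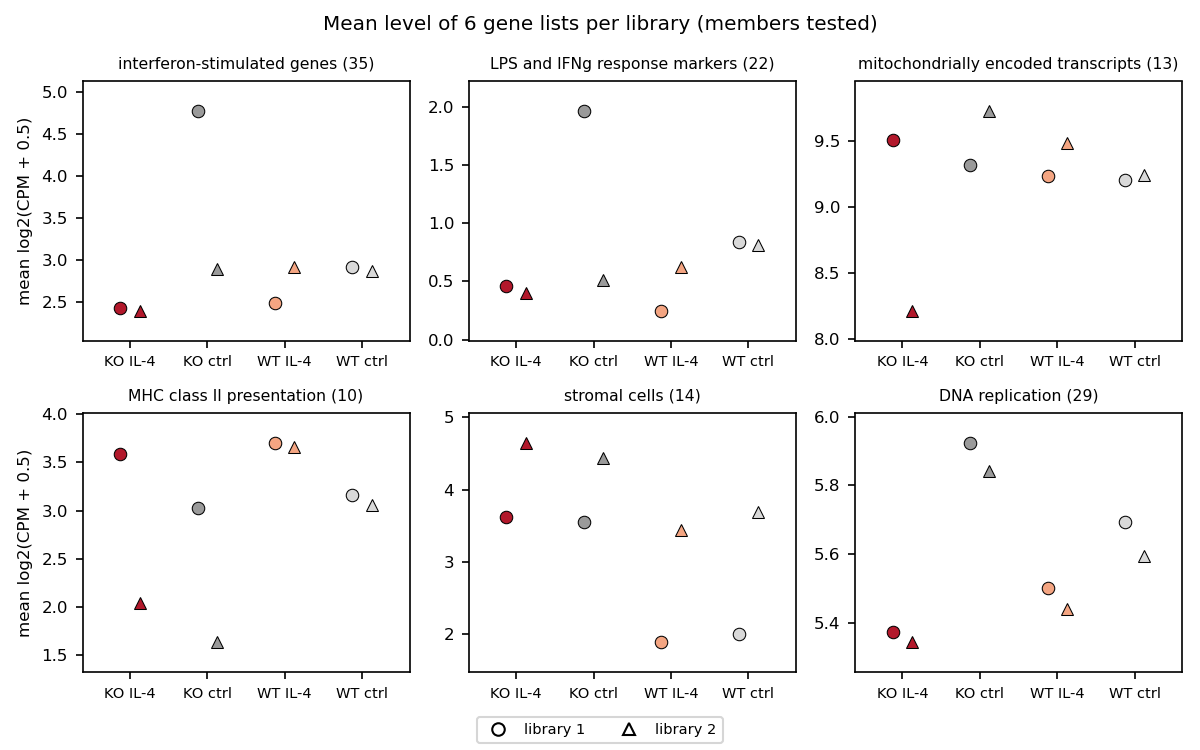
Mean level of 6 gene lists in each KO and WT library (log2 of CPM plus 0.5), with IL-4 left of control within each genotype. Circles are library 1 and triangles library 2. KO control library 1 lies apart for interferon-stimulated genes and KO IL-4 library 2 for mitochondrially encoded transcripts.

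Other lists also followed single libraries or library numbers. The 11 genes of MHC class II presentation summed to 439.3 and 139.3 CPM with IL-4 against 248.2 and 90.2 CPM in controls, and none of the 10 tested was called. Their median was 0.82, and leaving out 1 library gave -1.35 without KO IL-4 library 1, 1.31 without KO IL-4 library 2, 1.71 without KO control library 1 and 0.12 without KO control library 2. The median in WT cells was 0.75. Transcripts of the mitochondrial genome summed to 24671 and 12034 CPM with IL-4 against 23606 and 30610 CPM in controls. None of 13 was called, and the median of -0.53 was -0.052 without KO IL-4 library 2. Without KO IL-4 library 1, 8 of 13 were lower with a median of -1.16. Markers of stromal cells summed to 486.0 and 1786 CPM with IL-4 against 484.2 and 1262 CPM in controls, none of 14 being called. In WT cells they summed to 85.9 and 332.5 CPM with IL-4 against 99.9 and 505 CPM in controls. The part of these differences between libraries in the calls above was not tested. Summed markers of granulocytes were at most 45.5 CPM and those of B cells at most 30.3 CPM in any of the 4 libraries, and Cd3d and Cd3e, defining T cell genes, had 0 counts in all 4.

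Genes of DNA replication fell in 13 of 29 cases and rose in none, with a median of -0.55. Pole, the catalytic subunit of a replicative polymerase, had 32.0 and 30.2 CPM with IL-4 against 63.3 and 57.7 CPM in controls (log2 fold change -0.96 ± 0.10, adjusted p = 0.00146). Lig1, the replicative DNA ligase, had 91.1 and 82.9 CPM against 164.0 and 146.7 CPM (-0.84 ± 0.12, adjusted p = 0.00474). Ccne2, a cyclin of S phase entry, had 21.2 and 24.0 CPM against 41.9 and 40.0 CPM (-0.86 ± 0.14, adjusted p = 0.00749). These 3 held in all 4 fits without a library, and 4 members were called without KO IL-4 library 2, 3 without KO control library 1, 8 without KO IL-4 library 1 and finally 12 without KO control library 2. Mitotic genes summed to 1365 and 795.3 CPM with IL-4 against 2431 and 1463 CPM in controls. They had a median of -0.89 with 24 of 25 below 0, but only Top2a fell, by 0.98 (adjusted p = 0.0431), with 0.223 without KO IL-4 library 2 and with 0.209 without KO control library 1. The falls were 0 without either of those libraries, 11 without KO IL-4 library 1 and also 11 without KO control library 2, 10 by DESeq2 and 17 with no low-count filter. Mki67, a proliferation marker, had 255.8 and 117.0 CPM with IL-4 against 447.5 and 315.0 CPM in controls and was not called (adjusted p = 0.0910).

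Metabolic genes changed by less. Of 22 glycolytic genes 5 rose and none fell, with a median of 0.11. They were Hk2, Hk3, Pfkp, Pgam1 and Ldha, with log2 fold changes between 0.48 and 1.04, and each was lost without KO IL-4 library 2, at adjusted p of 0.0720 to 0.169, and without KO control library 1, at 0.0817 to 0.184. Pfkp was also lost without KO IL-4 library 1 (adjusted p = 0.0816). Hk3, a hexokinase, had 432.5 and 501.9 CPM with IL-4 against 220.8 and 235.0 CPM in controls. Of 28 genes of the TCA cycle and respiratory chain 4 rose, by 0.41 to 0.67, with a median of 0.24 and 24 of 28 above 0. Each of these 4, Suclg1, Sdhc, Mdh2 and Uqcrc1, was lost without KO control library 1, at adjusted p of 0.0770 to 0.119. Suclg1, Sdhc and Uqcrc1 were lost without KO IL-4 library 2 (0.0630, 0.0687 and 0.117), Sdhc, Mdh2 and Uqcrc1 without KO control library 2 (0.0575, 0.0584 and 0.119), and Mdh2 without KO IL-4 library 1 (0.0529). Pdia4, a protein folding enzyme of the endoplasmic reticulum, had 159.1 and 146.6 CPM against 90.4 and 87.2 CPM (0.78 ± 0.10, adjusted p = 0.00333). Of 17 immediate early and heat shock genes, 7 rose and none fell, with a median of 0.62, and 4 or 5 rose without any 1 library. The heat shock gene Hspa1b had 10.7 and 12.8 CPM with IL-4 against 2.21 and 2.29 CPM in controls (2.38 ± 0.31, adjusted p = 0.00311), and its near-identical copy Hspa1a, which may share its reads, rose by 2.51 (adjusted p = 0.00576, but 0.0504 without KO control library 1). Hspa8, the constitutive form, was not called at 1989 and 1540 CPM against 1802 and 1876 CPM. Of 17 genes listed as ligands and relatives of PTPRZ, 11 were tested, of which none rose and 2 fell, Ptpra and Ptpn6. The ligands Ptn, Mdk, Cntn1 and Il34 were not tested, with at most 9 counts in any of the 4 libraries. Ptpra, a related receptor phosphatase, had 246.3 and 205.0 CPM with IL-4 against 318.8 and 376.5 CPM in controls (adjusted p = 0.0172, but 0.0878 without KO IL-4 library 2). Ptpn6 is described with the receptor pathway above.

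The IL-4 response of KO cells was set against that of WT cells, which share no samples with it, to see whether loss of Ptprz1 changes the response. KO libraries held Y-linked transcripts (Ddx3y at 87.0 to 110.6 CPM) and 0 counts of Xist, and WT libraries held Xist (484.9 to 617.8 CPM) and 0 counts of Ddx3y, so genotype and sex cannot be told apart here. In WT cells 665 genes rose and 557 fell, which are 4.92% and 4.12% of those tested and 9.04% together. Of the genes that rose in KO cells, 331 (69.5%) rose in WT cells, which is 49.8% of the WT rises. Of those that fell, 296 (65.5%) fell in WT cells, which is 53.1% of the WT falls. The WT change had the same sign for 95.2% of KO rises and 97.6% of KO falls. No gene passed the test of the difference between the responses (edgeR, smallest adjusted p = 0.616). Before adjustment 604 genes lay under 0.05 in that test, fewer than the 676 that chance alone would give. DESeq2 called 4 genes, Col4a2, Ccl2, Neat1 and AL732309.1, of which all but Ccl2 are named after their values were seen.

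The gene with the clearest difference among those described was Ccl2. It had 24.5 and 22.1 CPM with IL-4 in KO cells against 7.28 and 7.46 CPM in KO controls, and 25.3 and 27.0 CPM with IL-4 in WT cells against 2.87 and 3.40 CPM in WT controls. IL-4 treated cells were thus close, and KO controls were above WT controls. The rise was 1.66 in KO and 3.06 in WT cells, a difference of -1.40 with a 95% interval of -1.94 to -0.85 (unadjusted p = 0.000227, not called after adjustment). Arg1 rose by 9.60 in KO and 12.46 in WT cells (unadjusted p = 0.0329), while its level with IL-4 was 1454 and 1357 CPM in KO cells and 1499 and 1612 CPM in WT cells and its control level was 1.24 and 2.39 CPM in KO cells and 0.0486 and 0.493 CPM in WT cells. Flt1 rose by 6.25 in KO and 8.72 in WT cells (unadjusted p = 0.0123). Csf2ra rose by 1.05 in KO cells, while in WT cells it had 198.7 and 140.6 CPM with IL-4 against 160.4 and 150.6 CPM in controls, a difference in change of 0.92 (95% interval 0.402 to 1.445, unadjusted p = 0.00297, not called). Interferon-stimulated genes had a median of -2.09 in KO and -0.22 in WT cells, and KO control library 1 bears on this difference as given above. DNA replication genes had medians of -0.55 in KO and -0.18 in WT cells, with 13 falls in KO and 3 in WT cells. None of the differences of single members passed adjustment.

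**Figure D5:**
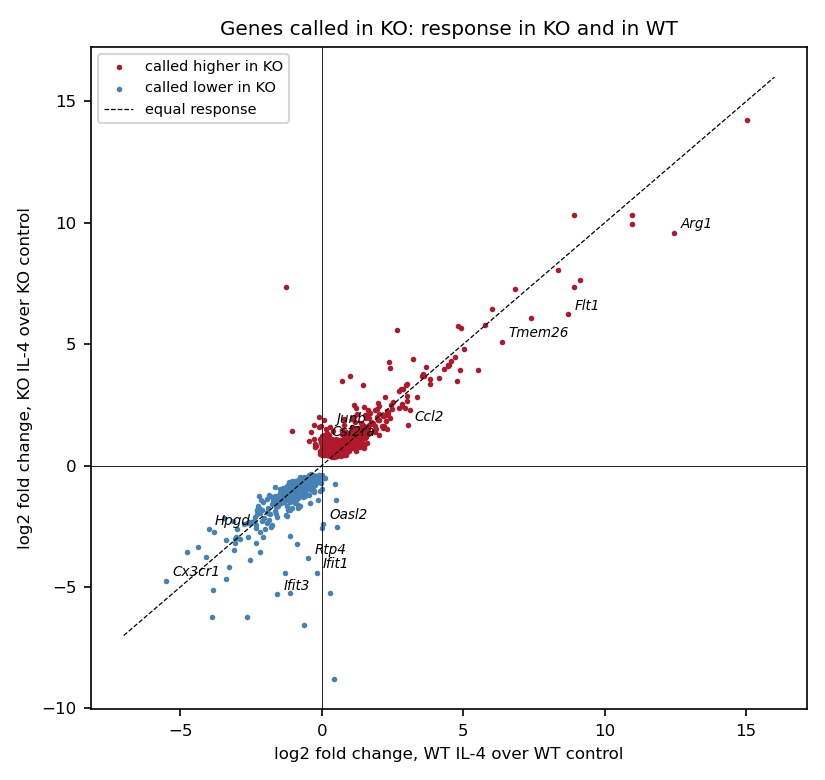
IL-4 response in KO cells against that in WT cells (log2 fold change, IL-4 over control) for the 928 genes called in KO cells. Red points rose and blue points fell in KO cells, and the dashed line marks equal responses. Of the red points 95.2% lie above 0 in WT cells and of the blue points 97.6% lie below 0. The fold changes of Ifit1, Ifit3 and Rtp4 are lower in KO than in WT cells, and KO control library 1 had high interferon-stimulated transcripts.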

How the data were processed

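The authors deposited a table of estimated counts per Ensembl gene. The submitters' processing notes name Salmon 1.10.2, a transcript quantifier, R 4.4.1, DESeq2 1.45.3, FastQC 0.11.9 and genome build GRCm39, but not what each was used for. All values were whole numbers and were used as deposited. Whether strand was used in counting is not given in the sources used here, so overlapping and antisense genes, and near-identical copies, have uncertain counts. Total RNA was made into libraries with a directional kit, per the labels' protocols. Of 55891 identifiers, 51425 (92.0%) were matched to a symbol.

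In edgeR 4.0.16 (R 4.3.3), genes were filtered with filterByExpr, libraries were scaled with TMM, and all 12 libraries entered a quasi-likelihood fit with a mean for each group and 6 residual degrees of freedom, so the spread is shared with WT and LPS+IFNγ groups. F tests were two-sided, and standard errors were derived from the F statistics. A gene with no counts was set at a limit of 3 counts, which is 0.138 to 0.164 CPM in the 4 libraries and covers counting error only. Libraries of each group differed beyond sampling noise in a chi-square comparison, so none was counted as a resequenced copy of the other. That comparison cannot tell whether they are from different animals or cultures. The procedure was run on simulated data with the same spread in every group, so that run does not cover the unequal spread of KO and WT groups.

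The genes and the 32 pathway and 8 marker lists were chosen with earlier results of these data known. Named genes are the 15 called in each direction with the largest change, at least 5 CPM in the higher group and groups apart, up to 6 called and 2 not called members per list, and a set of known IL-4 and macrophage genes. Promoters are from RefSeq (GRCm38.p6). DESeq2 1.42.0, other scaling, filters, sample sets and blocks, a test against a log2 change of 0.5 and leaving out each library were tried as alternatives. Where 1 library is left out, its group keeps 1 library, so those counts of calls depend on the spread of the other groups.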

Additional observations from a re-analysis of the deposited data

How the results depend on the processing

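For KO cells, 476 higher and 452 lower genes became 782 and 838 with no filter on low counts, 129 and 89 in a test against a log2 change of 0.5, 7 and 1 with the 4 libraries of the contrast alone, and 35 and 14 with the 6 KO libraries alone, while DESeq2 called 692 and 948. Leaving out 1 KO library gave 172 to 501 higher and 131 to 677 lower genes. For WT cells, 665 and 557 became 144 and 100 in the test against 0.5, 1859 and 1616 with the 4 libraries alone, and 1941 and 1712 with the 6 WT libraries alone, with 838 and 856 without the filter and 961 and 879 by DESeq2. Leaving out 1 WT library gave 102 to 187 higher and 73 to 108 lower genes. No gene was called for the difference between genotypes, but 23 were without the filter, 4 by DESeq2 and 12 without KO control library 2, many of them interferon-stimulated, so the range without 1 library was 0 to 12. The cause of these changes was not tested.

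The labels do not say that library numbers pair samples. The differences between libraries 2 and 1 correlated at 0.359 between KO control and KO IL-4 over genes, with only 2 pairs. With the replicate block within genotype, 771 genes were higher and 806 lower in KO cells and 1030 and 1034 in WT cells, and with a block shared by both genotypes 591 and 590 in KO cells. The block called no gene for the difference between genotypes. Among 25 mitotic genes, 19 fell with the block within genotype and 6 with the shared block, against 1 without a block.

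Of 97 called genes that the text names, 97 stayed called with other size factors, 97 by DESeq2, 97 with the stricter filter, 96 with the block within genotype, 55 in the test against 0.5, 22 with the 6 KO libraries and 7 with the 4 libraries alone, the last with the same direction throughout. Changes of direction touched only genes that were not called. Leaving out 1 library put the log2 fold change of Ccl22 between -4.17 and 5.40, Cd68 between -0.81 and 0.12, Fn1 between -0.34 and 1.98, Hspa8 between -0.26 and 0.11, Itgam between -0.31 and 0.072 and Saa3 between -4.58 and 0.94. At 2 libraries a group, depth limits genes under about 3 counts, and the spread between libraries limits the rest.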
